A study of Mus musculus with 11 samples.

Results

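The collagen chain genes are the genes that encode the alpha chains of the collagens, and they were chosen by symbol alone, as Col followed by a number, the letter a and a number. The table held 44 such genes among 45777. RNA-seq was performed on whole skin and whole small intestine (SI) of BALB/c mice that were 8 to 10 weeks old and had been shaved. Control mice received 62.5 mg of Vaseline per day, and the other mice received 62.5 mg of cream containing 5% imiquimod (IMQ), a Toll-like receptor 7 agonist that induces psoriasis-like skin inflammation, on the back and right ear for 5 to 8 days. The groups were control skin (replicates 1 to 3), IMQ skin (replicates 4 to 6), control SI (replicates 7 to 9) and IMQ SI (replicates 10 and 11). The labels do not say whether each library came from a separate mouse, so p-values measure the spread between these libraries, and the cream was applied to the skin only. Since the controls received Vaseline, effects of IMQ and of the rest of its cream cannot be told apart.

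Collagens are trimers of alpha chains wound into a helix. Fibril-forming chains such as Col1a1, Col1a2 and Col3a1 build the tensile fibers of the dermis and of the intestinal wall, type IV chains build the sheet of every basement membrane, and type VI chains build microfilaments between cells and fibers. Smaller families decorate fibrils, anchor the epidermis to the dermis, or span the cell membrane. In the skin most chains are made by dermal fibroblasts, whereas Col7a1 and Col17a1, which hold the epidermis in place, are made by keratinocytes.

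The libraries held 44995414 to 58526384 counts. Summed FPKM (fragments per kilobase of transcript, scaled to library depth, a level that can be compared between genes) of 5 keratinocyte markers lay between 4664 and 13044 in the skin and at most 1.36 in the SI, and that of 6 intestinal epithelial markers between 6563 and 14562 in the SI. One skin library stood apart: control replicate 2 had 147 FPKM of the intestinal markers, or 1.68% of the mean of control SI, against at most 3.66 FPKM in the other skin libraries. It also had 9.88 FPKM of 8 hair follicle markers, against 497 and 856 in the other controls and 8.08 to 9.98 in the IMQ skin. Counts of called chains are given with and without this library, and fold changes without it for some chains. Control replicate 3 of the skin had the highest summed collagen level, 10530.5 TPM (transcripts scaled to the same total in each library), against 5260 and 5084 in replicates 1 and 2. In the IMQ skin it was 5700, 4321 and 4034 TPM, within or below the range of the controls. In the SI the sum was 473 to 513 TPM in the controls and 661 and 541 TPM with IMQ. Collagen chains took 1.22 to 2.89% of all counts in the skin and 0.147 to 0.208% in the SI.

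The promoters of 4 type IV genes are shown because these lie as head-to-head pairs and hold 3 of the 5 chains that IMQ changed in either tissue. The sequences are from RefSeq on GRCm38.p6 and run from 250 bases before to 50 bases after the annotated start, 5′ to 3′ on the strand of the gene. Such windows were found for 35 of the 44 genes; the others are Col1a1, Col2a1, Col4a3, Col5a2, Col9a3, Col12a1, Col14a1, Col22a1 and Col26a1. Capitals mark motifs, which were searched on both strands. The first is the CCAAT box. The GC box was searched with the letters GGGCGG. The TATA box was searched by its core letters, which are TATAAA. The C-rich box was searched with the letters CCCTCCCC.
Col4a1 (chr8:11312777-11313076, minus strand): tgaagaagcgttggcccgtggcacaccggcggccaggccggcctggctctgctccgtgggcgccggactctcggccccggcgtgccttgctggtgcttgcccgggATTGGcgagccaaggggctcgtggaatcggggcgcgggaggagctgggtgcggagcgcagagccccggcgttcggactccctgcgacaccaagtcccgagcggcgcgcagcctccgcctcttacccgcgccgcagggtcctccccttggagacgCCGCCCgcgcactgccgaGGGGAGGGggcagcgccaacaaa
Col4a2 (chr8:11312555-11312854, plus strand): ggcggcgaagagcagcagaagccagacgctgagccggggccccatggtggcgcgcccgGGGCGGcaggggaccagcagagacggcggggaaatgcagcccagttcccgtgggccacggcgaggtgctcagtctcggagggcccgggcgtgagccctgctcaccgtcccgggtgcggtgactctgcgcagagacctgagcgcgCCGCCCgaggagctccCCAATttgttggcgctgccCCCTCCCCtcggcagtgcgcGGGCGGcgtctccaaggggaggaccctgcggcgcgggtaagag
Col4a5 (chrX:141475169-141475468, plus strand): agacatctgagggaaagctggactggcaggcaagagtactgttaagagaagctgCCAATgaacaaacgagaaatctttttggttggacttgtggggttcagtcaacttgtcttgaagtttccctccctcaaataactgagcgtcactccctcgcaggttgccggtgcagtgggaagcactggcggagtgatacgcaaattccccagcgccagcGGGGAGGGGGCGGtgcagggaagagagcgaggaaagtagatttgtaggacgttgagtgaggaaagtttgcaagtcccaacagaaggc
Col4a6 (chrX:141474027-141474326, minus strand): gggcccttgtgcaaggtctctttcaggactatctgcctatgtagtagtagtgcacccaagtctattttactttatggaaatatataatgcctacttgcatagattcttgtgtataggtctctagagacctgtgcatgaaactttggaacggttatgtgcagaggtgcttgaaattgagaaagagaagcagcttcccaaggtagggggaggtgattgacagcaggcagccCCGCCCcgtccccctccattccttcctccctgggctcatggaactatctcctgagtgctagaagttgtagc
The starts used for the windows of Col4a1 and Col4a2 lie 21 bases apart, so 78 bases are shared by their windows, read on opposite strands. The starts used for Col4a5 and Col4a6 lie 1343 bases apart. For Col4a1, Col4a5 and Col4a6 these starts lie inside the gene spans given below and not at their edges. The windows of Col4a1 and Col4a2 have 74.0 and 73.7% G and C, those of Col4a5 and Col4a6 52.7 and 48.3%, and the median over all 32851 windows of the table was 52.7%. A GC box stood in all 4 windows, once each in Col4a1, Col4a5 and Col4a6 and 3 times in Col4a2, and in 35.7% of all windows. The C-rich box stood in the windows of Col4a1, Col4a2 and Col4a5, where it overlapped the GC box in Col4a5, and in 10.8% of all windows. In Col4a1 and Col4a2 the C-rich box is the same site, in the shared bases read on opposite strands. The GC box of Col4a1 also stands in the window of Col4a2 as the same site. A CCAAT box was found in the same 3 windows and in 37.4% of all windows. No TATA box was found in the 4 windows, and 13.6% of all windows had one. Over the 38 windows of collagen genes, 23 had a GC box, 11 a C-rich box, 13 a CCAAT box and 5 a TATA box. These matches describe letters and not binding.

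Which chains each tissue uses was examined first in the controls. Col3a1, the type III chain of pliable fibers, had the highest level in both tissues, with 548, 674 and 1167 FPKM in the control skin and 54.6, 50.8 and 57.4 FPKM in the control SI. Every skin library lay above every SI library. Col1a2 had 424, 544 and 1039 FPKM in the control skin against 22.9 to 23.1 in the control SI, and Col1a1, its partner in type I fibrils, had 354, 299 and 997 FPKM against 14.9 to 18.0. Next in the skin came the type VI chains Col6a1 (175, 108 and 278 FPKM) and Col6a2 (169, 83.8 and 296 FPKM). They also followed Col3a1 in the order of median levels over the 5 SI libraries, with 26.0 to 30.8 FPKM of Col6a1 and 21.2 to 29.9 FPKM of Col6a2 in the controls. Col4a1 was next in the SI, with 19.6 to 24.2 FPKM in the controls, while in the skin it ranked 7 by its median.

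**Figure D1:**
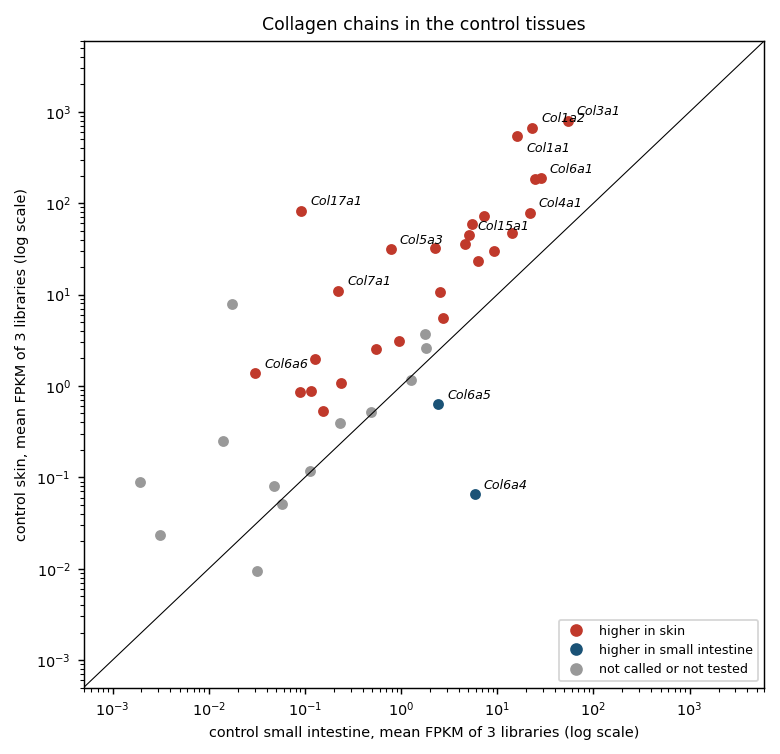
Mean FPKM of each collagen chain gene over the 3 control SI libraries (horizontal, log scale) and the 3 control skin libraries (vertical, log scale), with the line of equal level. Most points lie above the line, and Col6a4 and Col6a5 are the 2 called chains below it. The plot holds 42 of the 44 genes, as Col4a6 and Col10a1 were listed at 0 in all controls of a tissue.

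Of the 37 collagen genes with a count in all 6 control libraries, 27 (73.0%) were higher in the skin and 2 were higher in the SI at an adjusted p under 0.05. Among all 18890 genes tested, 51.9% were called in either direction and 25.7% were higher in the skin. The median log2 fold change, skin against SI, was 1.71 over the collagen genes and 0.00 over all genes. Col17a1, the transmembrane collagen of hemidesmosomes, differed most, with 77.5, 118 and 51.7 FPKM in the skin against 0.0661 to 0.115 FPKM in the SI (log2 fold change 9.37, SE 0.49, adjusted p = 7.63e-06, edgeR). Among the chains higher in the skin, Col7a1, the anchoring fibril chain, followed with 10.2 to 11.5 FPKM against 0.206 to 0.237 FPKM (log2 fold change 5.17, SE 0.15). Then came Col6a6 (5.04, SE 0.36), the type V chain Col5a3 (4.83, SE 0.37) and Col1a1 (4.60, SE 0.51), with adjusted p-values in edgeR of at most 0.000209.

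The 2 chains that were higher in the SI with all libraries both belong to type VI. Without control replicate 2 of the skin 4 were higher in the SI, with Col13a1 (log2 fold change -0.75, adjusted p = 0.0292, edgeR) and Col22a1 (-0.95, adjusted p = 0.0459) added, and 28 were higher in the skin. Col6a4, a long chain related to Col6a3, had 7.42, 4.55 and 5.61 FPKM in the control SI and 0.0224, 0.0914 and 0.0814 FPKM in the control skin. In counts these were 2976, 1801 and 2705 against 10, 35 and 36, a log2 fold change of -6.93 (SE 0.50, adjusted p = 2.66e-05, edgeR). Col6a5 had 2.03 to 2.79 FPKM in the control SI and 0.383 to 0.890 FPKM in the control skin (log2 fold change -2.37, SE 0.34, adjusted p = 0.00076, edgeR). Col6a4, Col6a5 and Col6a6 lie near each other on the minus strand of chromosome 9, between positions 105689417 and 106096828. Col6a6, at one end of this cluster, was at 1.05, 1.21 and 1.87 FPKM in the control skin and at 0.0192 to 0.0387 FPKM in the control SI, the opposite of its neighbors. Control replicate 2 of the skin, with 35 counts of Col6a4, carried intestinal markers at 1.68% of the mean of control SI. Col6a4 had a mean of 5.86 FPKM in control SI and 0.0914 FPKM in this library. Replicate 3, with 36 counts, had 0.0276 FPKM of the intestinal markers. The part of intestinal transcripts in the Col6a4 level of replicate 2 was not tested.

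The make-up of the collagen message also differed between the tissues. Fibril-forming chains made up 71.5% ± 5.32 (SD, n = 3) of the summed collagen TPM in the control skin and 43.7% ± 3.05 (SD, n = 3) in the control SI. Type VI chains made up 14.9% ± 4.25 against 27.8% ± 1.36, and type IV chains 4.40% ± 0.82 against 15.2% ± 0.66. The ranges of these 3 classes did not overlap between the tissues, and no test was run on the shares, which sum to a fixed total. Multiplexins, the basement membrane proteoglycans Col15a1 and Col18a1, made up 2.09 to 3.05% in the control skin and 4.83 to 7.18% in the control SI.

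**Figure D2:**
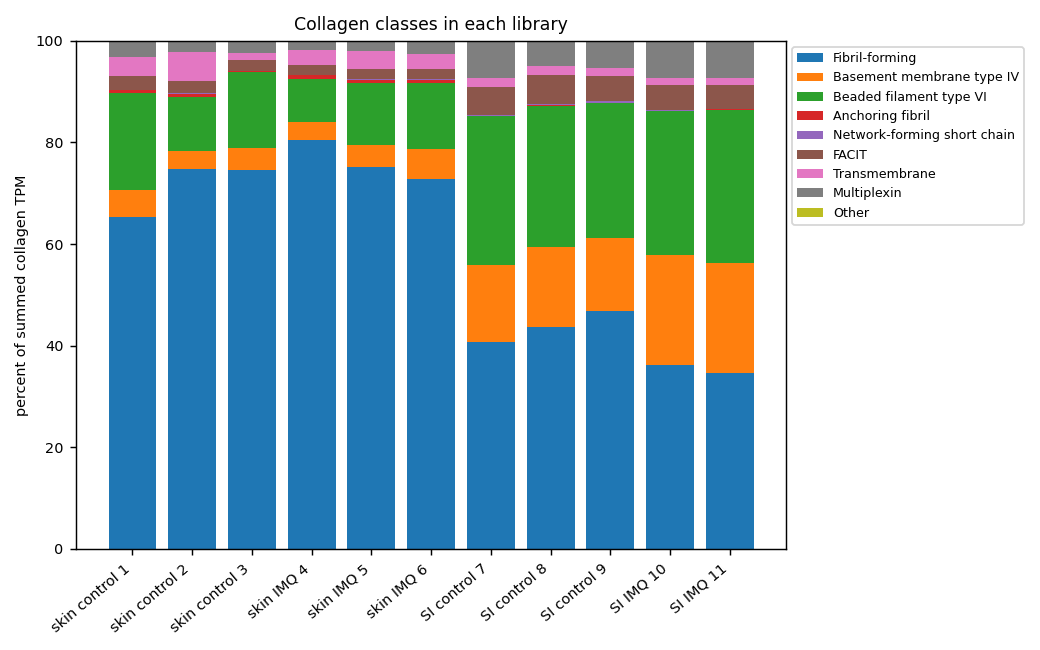
Share of each collagen class in the summed collagen TPM (vertical, percent) of each of the 11 libraries (horizontal), stacked to 100. Fibril-forming chains hold 65.4 to 80.4% in the skin and 34.5 to 46.7% in the SI, and type IV chains hold 14.4 to 15.7% in the control SI and 21.7 and 21.8% in the IMQ SI.

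The levels of partner chains were compared as ratios. The FPKM of Col4a1 was 1.47 to 1.78 times that of Col4a2 over all 11 libraries of both tissues. Col6a1 was 0.940 to 1.28 times Col6a2. The ratio of Col1a1 to Col1a2 was wider, from 0.550 in control replicate 2 of the skin to 0.960 in control replicate 3. Col6a3 was 0.324 to 0.511 times Col6a1 in the skin and 0.241 to 0.279 times Col6a1 in the SI. Col4a3 was 0.382 to 0.514 times its head-to-head neighbor Col4a4 in the skin and 1.32 to 2.99 times in the SI, so that their order was opposite. The annotated spans of Col4a3 and Col4a4 overlap by 114 bases and those of Col4a1 and Col4a2 by 85 bases, and reads within these bases are uncertain, since the strand setting of the counting is not given.

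The effect of IMQ on the treated skin was then examined. In it 4 chains fell, Col9a3, Col4a5, Col4a6 and Col15a1, and none rose. These are a chain of the fibril-associated type IX collagen, both chains of the type IV trimer that is known from the epidermal basement membrane, and a multiplexin of vascular and muscle basement membranes. Of 40 collagen genes with a count in all 6 skin libraries 4 (10.0%) were called, against 6.74% of 20512 genes in either direction and 2.69% in the lower direction. The adjusted p of all 4 lay between 0.0148 and 0.0427 in edgeR's quasi-likelihood test, adjusted after Benjamini and Hochberg over all genes tested. In bulk tissue, fewer cells of a type and less RNA per cell cannot be told apart.

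Col9a3 (chr2:180598102-180622192, plus strand) had 0.932, 0.703 and 0.950 FPKM in the control skin and 0.312, 0.270 and 0.278 FPKM in the IMQ skin. All 3 IMQ libraries lay under all controls, control replicate 2 included. Its normalized count (the count scaled by the size factor of each library) was 131 ± 15.3 in the controls and 45.7 ± 4.96 with IMQ (SD, n = 3 each), and the log2 fold change was -1.52 (SE 0.23, adjusted p = 0.0148, edgeR). The other type IX chains had few counts, 16, 10 and 31 for Col9a2 in the control skin and none in the IMQ skin, and 0, 0 and 7 against 0, 3 and 0 for Col9a1, and both were outside the test.

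Col4a5 (chrX:141475370-141689236, plus strand) had 2.82, 3.55 and 2.85 FPKM in the control skin and 1.45, 1.27 and 1.03 FPKM in the IMQ skin. It was highest in control replicate 2, and no libraries overlapped between the groups. The normalized count was 1077 ± 194 in the controls and 453 ± 90.3 with IMQ (SD, n = 3 each), for a log2 fold change of -1.25 (SE 0.21, adjusted p = 0.0202, edgeR). Its neighbor Col4a6 (chrX:141165403-141474095, minus strand), whose promoter is shown above, was a weakly expressed gene with 42, 65 and 41 counts in the control skin and 12, 4 and 5 counts in the IMQ skin. Again the highest value was in control replicate 2. The log2 fold change of Col4a6 was -2.66 (SE 0.51, adjusted p = 0.0299, edgeR), on a base of 0.104 to 0.192 FPKM in the controls. Without control replicate 2 the log2 fold changes were -1.09 for Col4a5 and -2.29 for Col4a6, and both were called. The FPKM of Col4a6 was 0.0363 to 0.0543 times that of Col4a5 in the control skin and 0.00748 to 0.0228 times in the IMQ skin, without overlap.

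The other type IV chains were on the negative side in the skin with all libraries, without being called. Col4a4 had 0.830 to 0.968 FPKM in the controls and 0.422 to 0.582 FPKM with IMQ, also without overlap (log2 fold change -0.72, SE 0.19, adjusted p = 0.0776, edgeR). Col4a3 had a log2 fold change of -0.62 (SE 0.25). The abundant chains Col4a1 and Col4a2 overlapped between the groups, with 69.8, 44.7 and 123 FPKM against 54.9, 52.2 and 68.5 FPKM for Col4a1 (log2 fold change -0.37, SE 0.33) and a log2 fold change of -0.25 (SE 0.29) for Col4a2. Without control replicate 3, the highest control, these were 0.059 for Col4a1 and 0.10 for Col4a2. Over the 6 type IV chains the median log2 fold change was -0.67.

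Col15a1 (chr4:47207655-47313167, plus strand), which is made by endothelial and muscle cells and fibroblasts, had 36.5, 29.2 and 68.1 FPKM in the control skin and 15.6, 15.4 and 19.2 FPKM in the IMQ skin. The groups did not overlap, but control replicate 3 was far above the other controls. The normalized count was 12475 ± 5383 in the controls and 4893 ± 503 with IMQ (SD, n = 3 each), for a log2 fold change of -1.35 (SE 0.29, adjusted p = 0.0427, edgeR), and the log2 fold change was -0.95 without control replicate 3 (adjusted p = 0.0235). The call of Col15a1 was lost without a filter on low counts (adjusted p = 0.0543, edgeR) and in limma on log2(FPKM + 0.01) and log2(FPKM + 1) (adjusted p = 0.0541 and 0.0794). Col18a1, the other multiplexin, overlapped between the groups (log2 fold change -0.18, SE 0.29). The summed FPKM of 5 endothelial markers was 35.5 to 44.3 in the control skin and 65.5 to 89.0 in the IMQ skin, and 3 of the 5, Pecam1, Emcn and Tie1, rose. Of 6 smooth muscle markers Actg2 fell (log2 fold change -1.60, SE 0.29, adjusted p = 0.0255, edgeR) and the others were not called, while the log2 fold changes of the list had a median of -0.69 and its summed level was 262 to 337 FPKM in the control skin and 170 to 396 FPKM in the IMQ skin, with overlap. Their part in the results was not tested.

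**Figure D3:**
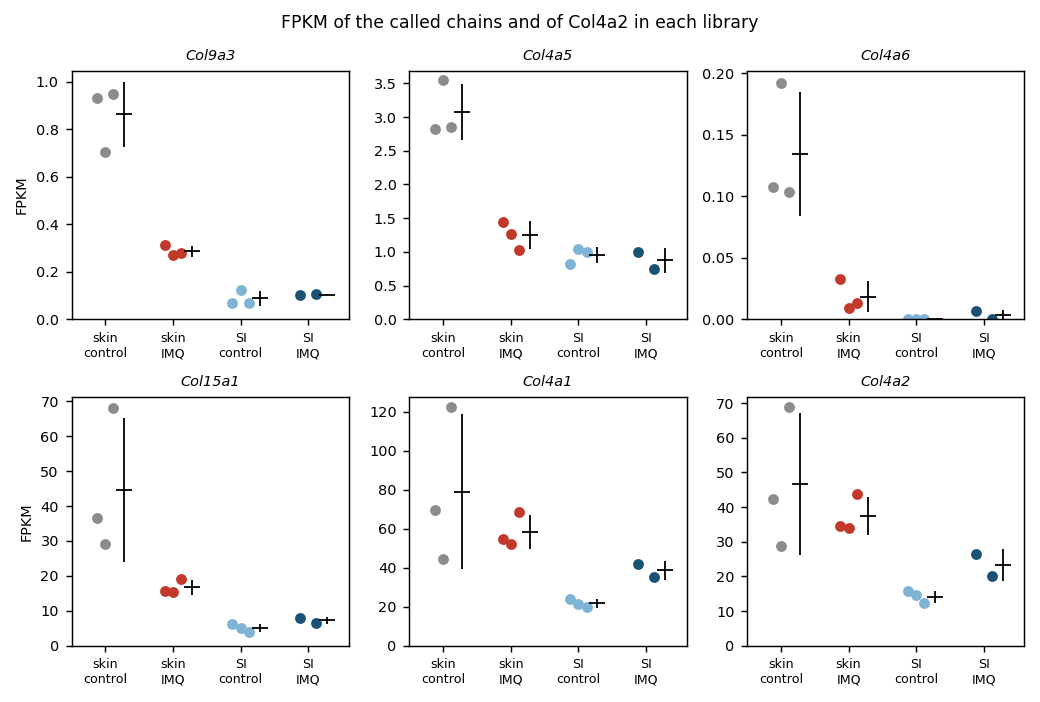
FPKM (vertical, linear from 0) of the 5 chains called with IMQ in either tissue and of Col4a2, in control and IMQ libraries of skin and SI (horizontal). Each point is a library, and the bar beside them is the mean with the SD. Col9a3, Col4a5, Col4a6 and Col15a1 lie lower in all 3 IMQ skin libraries than in all controls, and Col4a1 and Col4a2 lie higher in both IMQ SI libraries.

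Over all 40 chains tested in the skin the log2 fold change was negative for 31, with a median of -0.41 against -0.01 over all genes. Without control replicate 3, which had the highest collagen sum, it was negative for 25 with a median of -0.23, and Col1a1, Col3a1, Col4a1, Col4a2, Col5a1, Col18a1 and Col25a1 were on the positive side and Col22a1 on the negative side. The 3 IMQ libraries lay under all 3 controls for 15 chains (37.5%), against 13.3% of all genes. By class and with all libraries, 9 of 10 fibril-forming chains, 6 of 6 type IV chains and 4 of 6 type VI chains were on the negative side, and 2 of 4 transmembrane chains. The most abundant chains were not called: Col3a1 (log2 fold change -0.10, SE 0.34), Col1a1 (-0.45, SE 0.50), Col1a2 (-0.47, SE 0.37), Col6a1 (-0.87, SE 0.31) and Col6a2 (-0.93, SE 0.39). For Col1a1, IMQ replicates at 533, 306 and 300.5 FPKM lay within the control range of 299 to 997 FPKM. Col6a6, with the next smallest p, was at 0.651, 0.624 and 0.692 FPKM with IMQ, under all controls, but was not called (log2 fold change -1.03, SE 0.24, adjusted p = 0.0512, edgeR). Its relatives in type VI, Col6a4 and Col6a5, had positive log2 fold changes of 0.73 (SE 0.52) and 0.59 (SE 0.36).

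Among the other chains of the skin, the fibril-associated Col14a1 had 21.0, 14.1 and 33.9 FPKM in the controls and 9.67, 10.3 and 12.5 FPKM with IMQ, without overlap (log2 fold change -1.02, SE 0.28, adjusted p = 0.0809, edgeR). Col16a1 of the same class (-0.69, SE 0.22), Col20a1 (-0.41, SE 0.19), the type V chain Col5a3 (-0.91, SE 0.28) and the network-forming Col8a2 (-1.82, SE 0.50) also lay lower in all 3 IMQ libraries and were not called. Col8a2 was highest in control replicate 2, without which its log2 fold change was -1.23. Col23a1, a transmembrane chain, had 5.48 to 5.72 FPKM in the controls and 6.25 to 6.87 FPKM with IMQ (0.28, SE 0.09, adjusted p = 0.138, edgeR). Col12a1, Col19a1 and Col22a1 had log2 fold changes of 0.05, -0.06 and 0.14. The keratinocyte chains Col7a1 (0.37, SE 0.24) and Col17a1 (-0.42, SE 0.34) were not called, nor were Col5a1, Col5a2, Col8a1, Col11a2, Col24a1, Col25a1 and Col28a1, whose log2 fold changes lay between those of Col17a1 and Col7a1. Without control replicate 2 the log2 fold change was 0.43 for Col7a1 and -0.012 for Col17a1. Col10a1, a chain of growth plate cartilage, had no count in the control skin and 5, 3 and 0 counts with IMQ.

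**Figure D4:**
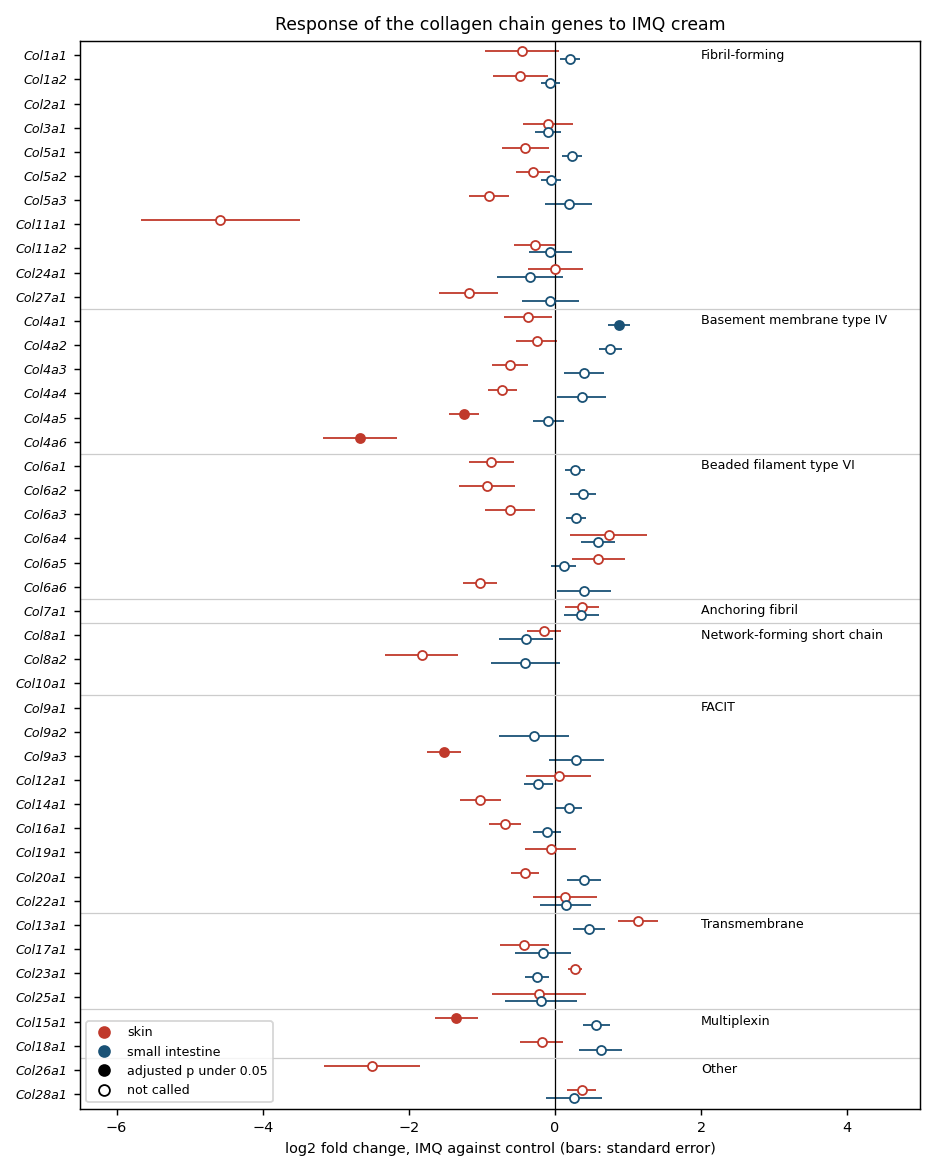
Log2 fold change of each collagen gene, IMQ against control (horizontal, bars are the SE), for skin (red) and SI (blue), by class. Filled points are called at an adjusted p under 0.05, and genes without a point had a count of 0 in a library of that tissue. In the skin 31 of 40 points lie under 0, and in the SI 22 of 37 lie above 0.

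The calls in the skin depended on single libraries. No chain was called without control replicate 1, IMQ replicate 5 or IMQ replicate 6. In these fits 14, 13 and 15 chains had an unadjusted p under 0.05 in edgeR. The calls over all genes fell there as well, from 1382 to 325, 258 and 687. With all 6 libraries, 18 of 40 chains and 4753 of 20512 genes had an unadjusted p under 0.05 in edgeR. Without IMQ replicate 4, only Col4a5 and Col4a6 were called, and without control replicate 3 the same 4 chains were called. Without control replicate 2, 1 chain was higher and 11 (27.5%) were lower, against 6.66% of all genes in the lower direction. These 11 were the 4 chains above with Col6a1, Col6a2, Col6a3, Col11a1, Col14a1, Col26a1 and Col27a1. The Wald test of DESeq2 on all 6 libraries called 14 chains lower (35.0%), against 7.39% of all genes, and 1 higher.

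The chain that was higher in both of these was Col13a1, a transmembrane collagen of cell adhesions. It was named here, as were Col11a1, Col26a1, Col27a1 and Col2a1, after its values were seen. Col13a1 had 0.920, 1.33 and 1.22 FPKM in the control skin and 2.80, 1.75 and 2.89 FPKM with IMQ, without overlap, and was not called in edgeR with all 6 libraries and the filter used here (log2 fold change 1.14, SE 0.27, adjusted p = 0.0555). It was called higher with the filterByExpr filter and in one fit of all 11 libraries, as it was by DESeq2. Without control replicate 2 the log2 fold change of Col13a1 was 1.34 (adjusted p = 0.0317).

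Some chains were lower in control replicate 2 than in the other skin controls, as was the sum of the hair follicle markers. Col11a1, a fibril-forming chain best known from cartilage, had 5.42, 0.590 and 17.7 FPKM in the control skin and 0.305, 0.413 and 0.255 FPKM in the IMQ skin. Controls 1 and 3 were high and control replicate 2 was near the IMQ libraries, as for the summed hair follicle markers. Its log2 fold change was -4.58 (SE 1.09, adjusted p = 0.0553, edgeR) with all libraries and -5.13 (SE 0.53, adjusted p = 0.00628) without control replicate 2. Col26a1 had 55, 11 and 61 counts in the controls and 3, 6 and 10 counts with IMQ. Its log2 fold change was -2.51 with all libraries and -2.92 without control replicate 2. Col27a1, a fibril-forming chain of cartilage, had 5.85, 1.57 and 3.68 FPKM in the controls and 1.46, 1.59 and 1.64 FPKM with IMQ, so that control replicate 2 lay within the IMQ range. The log2 fold change of Col27a1 was -1.18 with all libraries and -1.53 without control replicate 2. Col2a1, the main cartilage chain, had 43, 14 and 26 counts in the controls and no count in the IMQ skin, so that it was lowest in control replicate 2 but above the IMQ libraries. Of 4 cartilage markers, Acan had 3.33, 0.0734 and 3.95 FPKM in the controls and at most 0.0338 FPKM with IMQ, Comp had 0.470 to 1.01 FPKM in all 6 skin libraries, and Matn1 and Matn3 were at most 0.0306 FPKM in the skin. Unlike Col11a1, Col26a1 and Col27a1, the chains Col4a5, Col4a6 and Col9a3 were not near the IMQ level in control replicate 2. Col27a1 and Col2a1 were higher in control replicate 1 than in control replicate 3, the reverse of the marker sum. Of the 8 hair follicle markers, Lef1 and Hoxc13 fell in the skin, and 6 had a count in every skin library. Foxn1 differed from the sum, with 5.49, 3.86 and 5.51 FPKM in the controls and 6.53, 4.92 and 4.63 FPKM with IMQ. The part of the hair follicle in these values was not tested.

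**Figure D5:**
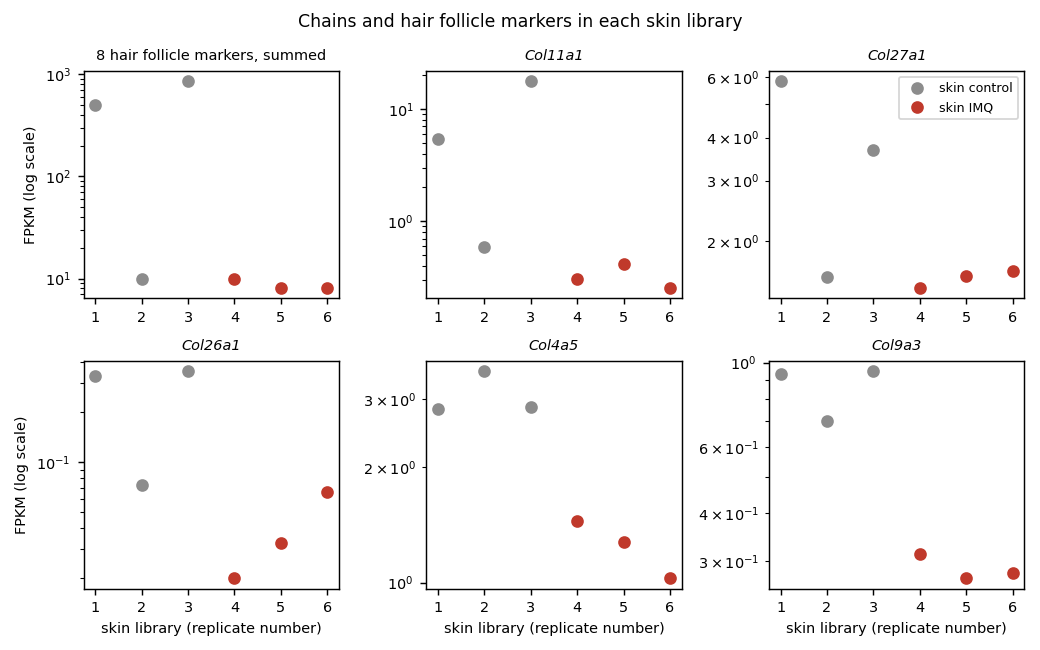
Summed FPKM of 8 hair follicle markers and FPKM of 5 collagen chains (vertical, log scale, each with its own range) in the 6 skin libraries (horizontal, by replicate number). In control replicate 2 the markers, Col11a1 and Col27a1 are near the IMQ libraries, and Col4a5 and Col9a3 are near the other controls.

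In the SI of the mice whose skin received the cream, 1 chain rose and none fell. It was Col4a1 (chr8:11198423-11312889, minus strand), which with Col4a2 forms the type IV trimer of nearly all basement membranes. Col4a1 had 24.2, 21.4 and 19.6 FPKM in the control SI and 42.1 and 35.2 FPKM in the IMQ SI, and both IMQ libraries lay above all controls. The normalized count was 8312 ± 940.3 in the controls (SD, n = 3) and 15181 ± 1095 with IMQ (SD, n = 2), for a log2 fold change of 0.87 (SE 0.15, adjusted p = 0.0269, edgeR). Col4a2 (chr8:11312805-11449287, plus strand) had 15.7, 14.5 and 12.3 FPKM in the controls and 26.5 and 20.1 FPKM with IMQ, again without overlap. It was not called (log2 fold change 0.76, SE 0.16, adjusted p = 0.0556, edgeR), and was called by DESeq2 (adjusted p = 0.00121). This 1 of 37 chains compares with 2.95% of 19965 genes called in either direction and 2.77% called higher.

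The share of type IV chains in the collagen TPM was 15.3, 15.7 and 14.4% in the control SI and 21.8 and 21.7% in the IMQ SI, and that of fibril-forming chains was 40.6, 43.7 and 46.7% against 36.1 and 34.5%. Neither overlapped between the groups, and with 3 against 2 libraries no test was run. The summed FPKM of the 5 endothelial markers was 22.9 to 33.0 in the control SI and 64.6 and 53.7 in the IMQ SI. Pecam1 rose and the other 4 were not called. Macrophage markers summed to 28.6 to 42.9 FPKM in the controls and 86.0 and 83.6 FPKM with IMQ, where Adgre1 and Cd68 rose. Their part in the level of Col4a1 was not tested.

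The other chains of the SI differed less. Col15a1 had 6.08, 5.20 and 3.84 FPKM in the controls and 7.93 and 6.56 FPKM with IMQ (log2 fold change 0.57, SE 0.19, adjusted p = 0.241, edgeR). Col6a4 had 4.55 to 7.42 FPKM in the controls and 9.70 and 7.49 FPKM with IMQ (log2 fold change 0.58, SE 0.23), and Col6a2 had 21.2 to 29.9 against 32.6 and 30.2 FPKM (log2 fold change 0.38, SE 0.17). These 3 were among the 5 chains with the smallest p and were not called. All 6 type VI chains were on the positive side, from 0.12 for Col6a5 to 0.58 for Col6a4, though Col6a5 was at -0.046 without IMQ replicate 10. Both IMQ libraries lay above all 3 controls for 13 chains (35.1%), against 15.1% of all genes. The median log2 fold change was 0.19 over the 37 chains and -0.02 over all genes, and for the chains it changed to 0.12 when IMQ replicate 10 was left out and to 0.29 when IMQ replicate 11 was. In the latter fit, 35 of the 37 chains were on the positive side, against 22 with all libraries. Col3a1, with 56.5 and 42.7 FPKM in the IMQ SI, overlapped the controls (log2 fold change -0.10, SE 0.17), as did Col1a2 (-0.07, SE 0.13), and Col6a1 had a log2 fold change of 0.27 (SE 0.14). Col4a5, which fell in the skin, had 0.827 to 1.04 FPKM in the control SI and 1.003 and 0.747 FPKM with IMQ (log2 fold change -0.09, SE 0.21). Col4a6 had no count in the control SI and 3 and 0 counts with IMQ.

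The chains that were outside the test in the SI had few counts there. Col11a1 had 8, 15 and 0 counts in the controls and 0 and 5 with IMQ, Col26a1 had 0, 0 and 9 against 13 and 0, and Col9a1 had 0, 13 and 9 against 0 and 4. Col19a1 had 5, 3 and 0 counts in the controls and none with IMQ, Col2a1 had 3 counts in 1 library of each group, and Col10a1 had none in any SI library. A count of 0 allows up to 3 counts per library, for counting error only, so that low levels of these chains in the SI were not detectable at this depth.

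Col4a1 was no longer called in edgeR without control replicate 8 or 9 or without IMQ replicate 10 or 11. In each of the fits without control replicate 8 or 9, 3 chains had an unadjusted p under 0.05 in edgeR. The calls over all genes fell there from 588 to 397 and 378. With all 5 libraries, 4 of 37 chains and 2452 of 19965 genes had an unadjusted p under 0.05 in edgeR. Without control replicate 7, Col4a1, Col4a2 and Col15a1 were called as higher, and the calls over all genes rose to 801. The smooth muscle markers summed to 126 FPKM in IMQ replicate 11 and to 253 to 439 FPKM in the other 4 SI libraries. Without replicate 11 the log2 fold change of Col4a1 was 0.94 (adjusted p = 0.123), and without replicate 10 it was 0.80 (adjusted p = 0.195).

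Whether the response differed between the tissues was tested with an interaction term over all 11 libraries. The response in the skin was lower than that in the SI for 2 of 36 chains, Col15a1 and Col9a3, and higher for none. Of all 18108 genes, 2.55% were called in either direction and 1.7% as lower in the skin. For Col15a1 the log2 fold change was -1.35 in the skin and 0.57 in the SI, a difference of -1.91 (SE 0.38, adjusted p = 0.0261, edgeR). For Col9a3 it was -1.52 in the skin and 0.29 in the SI, where it was counted 11, 20 and 13 times in the controls and 19 and 17 times with IMQ, a difference of -1.82 (SE 0.38, adjusted p = 0.0348, edgeR). The difference for Col4a5 was -1.17 (SE 0.30, adjusted p = 0.0695), and that for Col4a1 was not called. The median difference was -0.65 over the 36 chains and -0.03 over all genes. Without control replicate 2 of the skin 8 chains were called, among them Col4a1, Col4a2, Col6a1, Col6a2 and Col6a3. The calls over all genes rose there too, from 462 to 1072. No chain was called without IMQ replicate 4 or 5 of the skin or replicate 9, 10 or 11 of the SI. Without replicate 4, 5 or 9, 13, 15 and 12 chains had an unadjusted p under 0.05 in edgeR. The calls over all genes fell there to 293, 200 and 262. With all 11 libraries, 15 of 36 chains and 3068 of 18108 genes had an unadjusted p under 0.05 in edgeR.

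The genes that modify, cleave, crosslink and bind collagen were followed as lists. Over all genes tested, the share called in either direction was 6.74% in the skin and 2.95% in the SI, for comparison with every list. Of 20 genes that modify and fold the chains in the endoplasmic reticulum none was called in the skin, with a median log2 fold change of -0.18. In the SI, 2 of them rose, Plod1, a lysyl hydroxylase (log2 fold change 1.42, SE 0.14, adjusted p = 0.00224, edgeR), and Colgalt1, which adds galactose to hydroxylysine (0.72, SE 0.12, adjusted p = 0.0233). Of 13 genes of propeptide cleavage and crosslinking, Adamts14, a procollagen peptidase, fell in the skin, with a normalized count of 1747 ± 155 in the controls and 542 ± 56.6 with IMQ (SD, n = 3 each; log2 fold change -1.69, SE 0.13, adjusted p = 0.00238, edgeR). Loxl3, a lysyl oxidase that crosslinks chains, rose in the SI (1.96, SE 0.29, adjusted p = 0.0141), and no other gene of this list was called in either tissue. Of 14 fibril-binding proteoglycans and glycoproteins, Fn1, or fibronectin, fell in the skin (-0.97, SE 0.16, adjusted p = 0.0207), and none was called in the SI.

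Of 11 collagen receptors, Lair1, an inhibitory receptor of leukocytes, rose in both tissues, with a log2 fold change of 2.53 (SE 0.20) in the skin and 1.87 (SE 0.13) in the SI and adjusted p-values of 0.00238 and 0.00045 in edgeR. No other receptor was called in either tissue. In the transforming growth factor beta axis, known to drive collagen synthesis, 14 genes were tested. In the skin Ltbp3 and Ltbp4, which hold the latent growth factor in the matrix, fell (-0.91, SE 0.18, and -0.92, SE 0.18). In the SI the ligand Tgfb1 (1.65, SE 0.20) and the receptors Tgfbr1 (1.26, SE 0.15) and Tgfbr2 (0.98, SE 0.12) rose. None of 8 fibroblast markers was called in either tissue, with medians of -0.41 in the skin and -0.19 in the SI and summed levels of 294 to 437 FPKM in the control skin, 215 to 354 FPKM in the IMQ skin, 193 to 213 FPKM in the control SI and 179 and 164 FPKM in the IMQ SI.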

How the data were processed

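Total RNA of skin and small intestine was sequenced from stranded mRNA libraries. Per the labels and methods, the authors trimmed adapters with Trimmomatic, aligned reads to mm10 with HISAT2 2.1.0 and estimated abundance with StringTie 2.1.3b; how counts were taken and the strand setting are not given in the sources used here. The deposited table gives read counts, FPKM and TPM computed by the authors per library, not pooled. The collagen genes, classes and lists were chosen with earlier results of these data known.

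Counts were tested with edgeR 4.0.16 (quasi-likelihood) in R 4.3.3 with relative log expression scaling, on genes with at least 1 count in every library of the comparison, and p-values were adjusted (Benjamini-Hochberg) over all genes tested and called under 0.05. The methods name DESeq2, which was an alternative here (1.42.0), as were limma-voom (3.58.1), TMM, other filters, limma on log2(FPKM + 0.01) and log2(FPKM + 1), a log2 fold change of at least 1, a joint fit and leaving out each library. The test was checked on simulated counts. Levels are FPKM, and class shares are of summed TPM. Depth was 44995414 to 58526384 counts per library. Gene positions and promoters are RefSeq, GRCm38.p6, and all 44 genes matched. Described library by library were the chains called with IMQ in either tissue or between tissues, the 5 with the highest median FPKM per tissue, and, since only 5 were called, the 5 with the smallest p per tissue; between control tissues, the 5 called chains with the largest fold each way; of the lists, the called genes, of which 1 is not reported here.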

Additional observations from a re-analysis of the deposited data

Results flagged for a closer look

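The response to IMQ differed between skin and SI, by the interaction term of edgeR, for 2 chains. The log2 fold change of Col15a1 in the skin was lower than that in the SI by a difference of -1.91 (SE 0.38, adjusted p = 0.0261), with all 3 IMQ skin libraries under the controls and both IMQ SI libraries over them. With each library removed in turn it was still called 5 of 11 times, with adjusted p-values from 0.00829 to 0.108. The difference for Col9a3 was -1.82 (SE 0.38, adjusted p = 0.0348). It was still called 3 of 11 times, with adjusted p-values from 0.0241 to 0.122, and rests on 11 to 20 counts per library in the SI. Col9a3 also lost the call with the filterByExpr filter (adjusted p = 0.0593), without a filter (adjusted p = 0.0774) and in limma on log2(FPKM + 0.01) (adjusted p = 0.0594), and Col15a1 in limma on log2(FPKM + 1) (adjusted p = 0.0612).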

How the results depend on the processing

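In the skin, 4 chains were called with TMM and with limma-voom, 15 by DESeq2, 8 with the filterByExpr filter, 5 without a filter, 3 on log2(FPKM + 0.01), 2 on log2(FPKM + 1) and 9 in one fit of all 11 libraries. Col15a1 lost its call without a filter and on both FPKM scales and Col4a6 on log2(FPKM + 1), and the joint fit did not test Col4a6. Leaving out a library gave 0 to 12 chains, while the calls over all genes ran from 258 to 2521, against 1382. In the SI, where 1 was called, DESeq2 called 2, log2(FPKM + 1) and the joint fit 0 (2 chains each at an unadjusted p under 0.05), a log2 fold change of at least 1 left 0, and leaving out a library gave 0 to 3. For the difference between tissues, DESeq2 called 7 and log2(FPKM + 0.01) 1, against 2, Col9a2 was called in place of Col9a3 with filterByExpr and without a filter, and Col4a5 in place of Col15a1 on log2(FPKM + 1), and leaving out a library gave 0 to 8. Between the control tissues 27 to 34 chains were called, within 1.5 times 29 under all alternatives. There, limma on log2(FPKM + 0.01) moved the median of all genes by 0.45 on the log2 scale, and Col6a4 and Col6a5 were still called as higher in the SI. With 1 library left out, the direction turned for 11 of 40 chains in the skin, 18 of 37 in the SI, 13 of 36 in the difference between tissues and 2 of 37 between the control tissues, none of them called with all libraries. Over the fits without a library, the log2 fold change ran from -0.81 to 0.25 for Col1a1, from -0.32 to 0.24 for Col3a1, from -0.63 to 0.059 for Col4a1 and from -0.48 to 0.10 for Col4a2 in the skin, and from -0.15 to 0.017 for Col1a2 and from -0.24 to 0.040 for Col3a1 in the SI. Of 370 alternative values of named chains, 313 kept their direction and were called or not called as before, 42 lost the call, 10 gained it and 5 changed direction. The 313 include chains that were not called in either fit, and chains of the comparison of control tissues. Of the 6 fits that left out a skin library, Col4a5 and Col4a6 were called in 3, and Col9a3 and Col15a1 in 2. Where leaving out a library left 1 in the IMQ SI, that library was assumed to vary like the others. Chains under about 20 counts per library are limited by depth. The causes of these changes were not tested, beyond fewer libraries or other genes in a fit.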
